A study of Mus musculus with 12 samples.

Results

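Described here are 48 genes of the Wnt pathway among the 16425 genes of a deposited expression table of mouse embryonic fibroblasts (MEFs), which are connective-tissue cells grown out of embryos. They were chosen by symbol: every listed gene whose name begins with Wnt, Fzd, Sfrp, Dkk or Rspo followed by a digit, together with Frzb, Wif1, Lrp5, Lrp6, Axin1, Axin2, Ctnnb1, Lef1, Tcf7, Tcf7l1, Tcf7l2, Lgr4, Rnf43 and Znrf3. By role they comprise 15 Wnt ligands, 12 receptors and coreceptors, 7 genes of the R-spondin branch, 7 secreted antagonists and 7 intracellular components. GENCODE M21 has 55 protein-coding genes that fit the rule, and Dkk1, Dkk4, Sfrp5, Wnt1, Wnt6, Wnt8b and Wnt9b were not among the listed genes.

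The wild-type MEFs had been infected with an sgRNA aimed at the p53 response element of Pvt1 (labelled sg10), a site that the transcription factor p53 binds, or with a non-targeting sgRNA (labelled sgtom). All 6 libraries used here came from cells kept for 24 h in 0.5 µM doxorubicin, a DNA-damaging agent and activator of p53, with 3 biological replicates per guide. They are called the control guide and the response element guide, and values in groups of 3 always follow replicates 1, 2 and 3. The strain, the embryos behind each replicate and whether cells were cloned are not given in the sources used here, and the untreated cells of the series were not analysed here.

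Wnt proteins are secreted lipid-modified ligands that bind frizzled receptors together with the coreceptors Lrp5 or Lrp6. In the canonical branch this frees beta-catenin from a destruction complex built on axin, and beta-catenin then acts with TCF/LEF factors in the nucleus. R-spondins raise the response by keeping the ubiquitin ligases Rnf43 and Znrf3 away from the receptors, whereas the Sfrp proteins, Frzb, Wif1 and Dkk proteins act outside the cell, mostly as antagonists. In connective tissue and its fibroblasts the pathway is known for roles in skeletal patterning, wound repair and fibrosis.

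The libraries held 50091418 to 66132317 reads in genes. The targeted locus was checked first. Pvt1 stood at 16.4, 11.7 and 12.1 CPM (reads relative to library size, as the authors scaled them) with the control guide and at 8.04, 5.93 and 5.40 CPM with the response element guide. Myc, its neighbour, stood at 28.7, 27.0 and 35.6 CPM and at 43.5, 48.6 and 53.8 CPM. Neither gene's groups overlapped, and in the fit with replicate number as a block Pvt1 fell (log2 fold change −0.999, limma adjusted p = 1.40e-04) and Myc rose (0.67, limma adjusted p = 5.49e-04), while neither passed without the block. The labelled cell type was checked by 14 fibroblast and mesenchymal markers, all listed. Their summed level lay between 37795 and 39542 CPM, led by Fn1, Col1a1 and Vim. The sum does not show single markers. In the blocked fit 1 of the 14 passed, lower with the response element guide, where 0.0346% of all genes passed. Equal replicate numbers marked libraries that resembled each other, and both libraries of replicate 1 stood apart, as described below.

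The start regions of 4 genes that the results turn on are printed first. They are Sfrp2, a secreted antagonist that was far higher in replicate 1, Dkk2, an antagonist that was lowest there, Axin2, a scaffold protein and widely used target gene of the pathway, and Lef1, one of its nuclear factors. Each line gives the 250 bases before a RefSeq start on the plus strand of GRCm38.p6, 5′ to 3′, at chr3:83766071-83766320 for Sfrp2, chr3:132085042-132085291 for Dkk2, chr11:108920099-108920348 for Axin2 and chr3:131156044-131156293 for a start inside the Lef1 gene. Capitals mark matches to a TCF/LEF motif (CTTTG followed by a pair of bases each A or T, on either strand) or to the E-box CACGTG, the palindrome recognised by Myc and related factors, and the motifs do not overlap each other.
Sfrp2: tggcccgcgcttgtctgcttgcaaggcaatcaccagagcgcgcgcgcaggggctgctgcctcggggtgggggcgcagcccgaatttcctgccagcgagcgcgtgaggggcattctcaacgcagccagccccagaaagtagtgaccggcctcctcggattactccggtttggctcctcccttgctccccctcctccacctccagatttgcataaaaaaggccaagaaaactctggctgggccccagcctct
Dkk2: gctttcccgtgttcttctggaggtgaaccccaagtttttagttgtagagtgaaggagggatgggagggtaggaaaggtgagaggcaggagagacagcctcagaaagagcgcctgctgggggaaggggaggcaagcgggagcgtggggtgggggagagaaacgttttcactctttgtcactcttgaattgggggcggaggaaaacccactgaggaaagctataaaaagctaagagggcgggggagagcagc
Axin2: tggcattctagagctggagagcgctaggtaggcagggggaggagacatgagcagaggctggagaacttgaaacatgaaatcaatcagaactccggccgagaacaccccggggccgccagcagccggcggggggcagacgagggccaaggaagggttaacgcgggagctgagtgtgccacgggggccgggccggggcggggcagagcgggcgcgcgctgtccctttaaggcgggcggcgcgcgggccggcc
Lef1: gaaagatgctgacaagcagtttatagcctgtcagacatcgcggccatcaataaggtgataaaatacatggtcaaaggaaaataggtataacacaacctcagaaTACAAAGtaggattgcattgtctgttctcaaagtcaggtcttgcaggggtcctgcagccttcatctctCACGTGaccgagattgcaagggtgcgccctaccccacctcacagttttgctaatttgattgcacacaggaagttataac
Of the printed stretches, the one in Lef1 holds both motifs, with the TCF/LEF match beginning at −147 and the E-box at −79 from the start, and the other 3 hold neither. Lef1 has 4 RefSeq windows, of which this internal one was printed for its matches, and the 3 nearer the beginning of the gene hold no match to either motif. RefSeq windows of 300 bases (250 before to 50 after a start) were at hand for 31 of the 48 genes. The TCF/LEF motif occurred in the windows of 6 of these 31 genes (Fzd7, Lef1, Tcf7l2, Wnt3, Wnt5b and Wnt11), which is 14.6% of their 41 windows against 16.9% of all 32851 windows. The E-box occurred in 5 of the 31 genes (Fzd9, Lef1, Rspo4, Wif1 and Wnt9a), or 12.2% of their windows against 7.15% of all. These matches describe the letters of the windows only.

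Levels are compared between genes as CPM per kb of merged exons. Beta-catenin itself (Ctnnb1) was by far the highest, at 183 ± 8.22 CPM per kb with the control guide and 180 ± 12.5 with the response element guide (SD, n = 3 each, as throughout). Next came the antagonist Dkk3 (35.4 ± 11.6 and 31.2 ± 8.15 CPM per kb), the ligand Wnt9a (28.0 ± 3.54 and 27.9 ± 0.416) and the receptor Fzd7 (25.5 ± 2.61 and 25.0 ± 2.87). These 3 overlapped in range over the libraries, so that their order is not settled by these data.

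**Figure D1:**
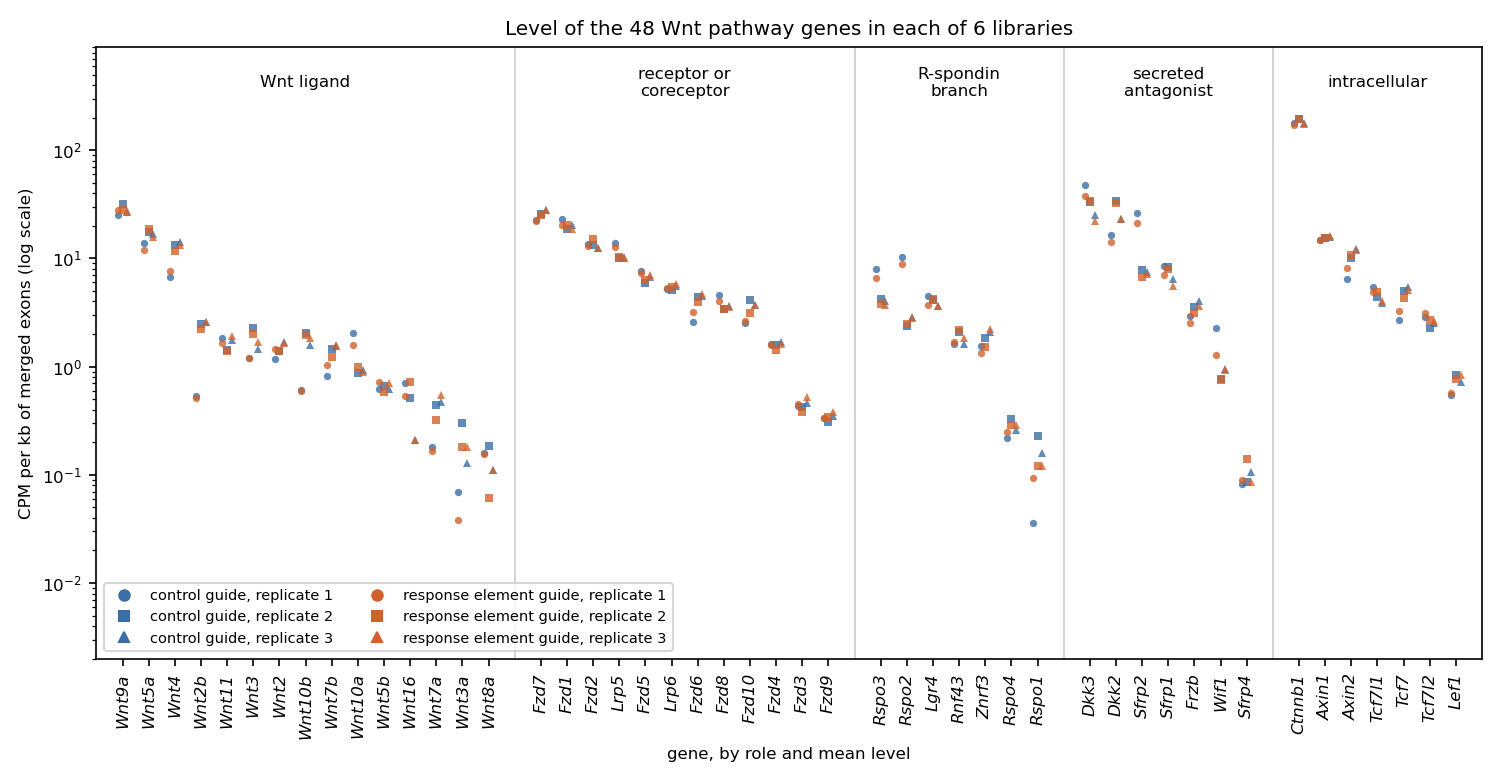
CPM per kb of merged exons (log scale) of the 48 genes in each library, grouped by role and ordered by mean; colours are the guides and symbols the replicate numbers. Levels run from Ctnnb1 at about 182 CPM per kb down to genes such as Sfrp4, and in genes such as Wnt2b, Rspo2 and Sfrp2 the circles of replicate 1 stand away from the other symbols.

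Among the ligands, Wnt9a held 37.9% to 48.7% of the summed CPM per kb of all Wnt genes in a library, and Wnt5a, a ligand best known for beta-catenin-independent signalling, held 20.9% to 26.3%. Wnt4 held 11.97% to 19.97%, and no other ligand reached 3.7%. Wnt9a and Wnt5a did not overlap in CPM per kb (lowest 25.2 against highest 18.9), whereas Wnt5a and Wnt4 did. Wnt3a and Wnt8a, at 0.106 to 0.836 CPM and 0.107 to 0.324 CPM, rested on 7 to 49 and 6 to 19 reads per library and stayed below the filter of 0.5 CPM in at least 3 libraries that a gene had to pass to be tested.

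The frizzled receptors were led by Fzd7, with 28.8% to 34.6% of their summed CPM per kb, followed by Fzd1 (23.2% to 29.2%) and Fzd2 (15.3% to 19.1%). Fzd3 and Fzd9 each held under 0.65%. Their coreceptor Lrp5 stood at 11.3 ± 2.16 and 11.2 ± 1.46 CPM per kb, about double the level of Lrp6 (5.32 ± 0.244 and 5.51 ± 0.231), with no overlap between these 2 genes. Rspo3 and Rspo2 made up nearly all R-spondin RNA, with 41.3% to 58.9% and 33.3% to 56.6%, and overlapped each other. Rspo1 (0.0693 to 0.444 CPM) and the antagonist Sfrp4 (0.346 to 0.591 CPM) were not tested for the same reason as Wnt3a and Wnt8a. In all, 44 of the 48 genes were tested.

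Among the antagonists, Dkk3 and Dkk2 (24.4 ± 8.69 and 23.3 ± 9.13 CPM per kb) overlapped, and Wif1, which binds Wnt proteins directly, was the lowest of the tested ones at 1.34 ± 0.832 and 0.988 ± 0.262. Of the nuclear factors, Tcf7l1 and Tcf7 were highest (4.56 ± 0.775 and 4.37 ± 1.47 CPM per kb with the control guide), followed by Tcf7l2 and, at 0.704 ± 0.148, Lef1. Exons of some of these genes overlap exons of other listed genes on the opposite strand. The overlap covers 759 bases in Ctnnb1 (Ulk4), 1233 bases in Fzd5 (Gm38058) and 1208 bases in Lef1 (Gm43352). The strand setting of the counting is not given in the sources used here. Shorter overlaps with listed genes exist in Wnt5a (Gm2670) and Tcf7l1 (Gm15401). Overlaps with genes that are not listed exist too, among them Sfrp2 (Gm26771, 347 bases) and Rspo3 (Gm48159, 404 bases). How reads of such stretches were counted is uncertain. These are levels of bulk RNA, in which fewer cells of a type and less RNA per cell cannot be told apart.

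The comparison between guides asked whether Wnt pathway RNA differs after doxorubicin when the p53 response element of Pvt1 is targeted. None of the 44 tested genes passed at an adjusted p of 0.05 (limma, adjusted over 14440 genes), where 0% of all genes passed. Log2 fold changes of log2(CPM + 0.5) ran from −0.27 (Wif1) to 0.13 (Tcf7l2), with a median of −0.02 against 0.00 over all genes, and 25 genes lay lower and 19 higher with the response element guide. The lowest unadjusted p of the 44 was 0.268 (Tcf7l2), so 0 of 44 lay under 0.05, as did 0.346% of all genes. Standard errors ran from 0.0549 to 0.754 because differences between replicates enter them, and a call missed here does not show equal levels.

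Groups of the 2 guides overlapped in all 44 genes. Over all genes, groups without overlap made up 1.47% on the lower side and 2.15% on the higher side. With replicate number as a block, 0.0346% of all genes passed and again none of the 44, the lowest limma adjusted p being 0.586 (Sfrp1 and Sfrp2). In the authors' deposited table the false discovery rate is 1 for these genes and the lowest p among them is 0.272. Axin2, Lef1 and Tcf7 are among the genes widely reported as targets of beta-catenin. Axin2 stood at 53.1 ± 16.1 and 56.6 ± 10.5 CPM (log2 fold change 0.12, SE 0.252, blocked SE 0.0662). Lef1 stood at 6.19 ± 1.30 and 6.42 ± 1.24 CPM (0.05, SE 0.198, blocked SE 0.0878). Tcf7 stood at 11.5 ± 3.85 and 11.1 ± 2.41 CPM (0.00, SE 0.287, blocked SE 0.0868). None of them passed in either fit. Myc, also reported as such a target, rose in the blocked fit, but it is the neighbour of Pvt1 that served above to check the guide. Whether its rise involves the Wnt pathway was not tested.

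All 6 tested antagonists had a lower mean with the response element guide, where 50.3% of all genes lay lower, with a median log2 fold change of −0.17, and none passed the test. Sfrp4, which was not tested, had a higher mean there (0.383 ± 0.0531 and 0.442 ± 0.129 CPM), on 20 to 33 reads per library. Without the block, leaving out 1 library turned the sign of 4 of the 6 tested antagonists. These were Wif1 (0.14 without control replicate 1), Sfrp2 (0.37 without the same library), Dkk3 (0.08, likewise) and Dkk2 (0.17 without control replicate 2, and 0.22 without response element replicate 1). Sfrp2 also turned without response element replicate 2 (0.08) or 3 (0.04), and Dkk3 without response element replicate 3 (0.06). With the block, which compares libraries within pairs, none of the 6 turned in any alternative run. Within pairs of equal replicate number, 5 of the 6 (Wif1, Sfrp1, Sfrp2, Frzb and Dkk2) were lower in 3 of 3 pairs, and Dkk3 was lower in 2 of 3. Over all genes, 14.4% were lower in 3 of 3 pairs and, likewise, 14.4% higher. Among the 44 genes 10 were lower in 3 of 3 pairs, the other 5 being Fzd4, Fzd7, Fzd8, Wnt2b and Rspo3, and 4 were higher (Lrp6, Fzd9, Rnf43 and Tcf7l2).

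Sfrp1, a decoy that binds Wnt ligands, stood at 37.3, 36.6 and 28.0 CPM with the control guide and at 30.8, 34.9 and 24.2 CPM with the response element guide. Its pair ratios were 0.824, 0.955 and 0.866, while the groups overlapped. The log2 fold change was −0.18 with a standard error of 0.167 without the block and 0.0503 with it (limma adjusted p = 0.99997 and 0.586).

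Sfrp2, its close relative, stood at 56.3, 16.97 and 16.3 CPM and at 45.5, 14.4 and 15.4 CPM, with pair ratios of 0.809, 0.849 and 0.948 (log2 fold change −0.20, blocked SE 0.0559, limma adjusted p = 0.586 with the block). Frzb stood at 9.45, 11.4 and 12.998 CPM and at 8.11, 10.2 and 11.9 CPM, with pair ratios of 0.858, 0.893 and 0.912 (−0.16, blocked SE 0.0663, limma adjusted p = 0.711 with the block). In both genes every pair was lower and the spread between replicates was wider than the difference between guides.

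Dkk3, a divergent member of the Dickkopf family, stood at 161, 112 and 84.0 CPM and at 126, 114 and 74.1 CPM, with pair ratios of 0.784, 1.02 and 0.882 (−0.17, blocked SE 0.0681, limma adjusted p = 0.738 with the block). Wif1 stood at 5.57, 1.88 and 2.32 CPM and at 3.08, 1.83 and 2.28 CPM, with pair ratios of 0.553, 0.974 and 0.983, of which replicate 1 was by far the lowest. Rspo3, a ligand of Lgr receptors, had pair ratios of 0.812, 0.902 and 0.920 (−0.18, blocked SE 0.0618, limma adjusted p = 0.672 with the block). In the blocked fit 7 of the 44 genes lay at an unadjusted p under 0.05 (Sfrp1, Sfrp2, Frzb, Dkk2, Dkk3, Rspo3 and Tcf7l2), against 6.68% of all genes.

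**Figure D2:**
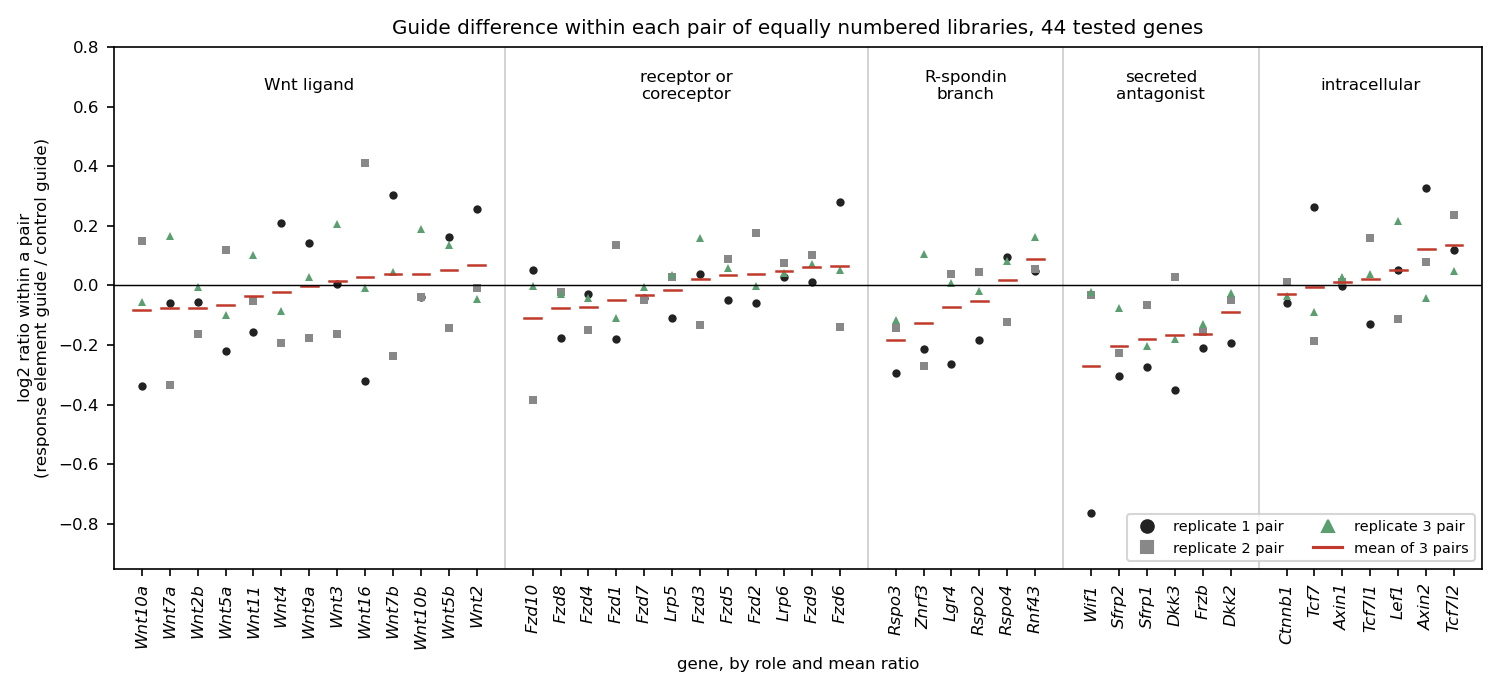
Log2 ratio of log2(CPM + 0.5) values, response element guide over control guide, within each pair of libraries of equal replicate number, for the 44 tested genes by role; red bars are the means of 3 pairs. The bars of all 6 secreted antagonists lie below 0, from −0.27 (Wif1) to −0.09 (Dkk2), and the replicate 1 pair is the lowest point in each of them.

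Calls with the block depended on the pair of replicate 2. Without its 2 libraries Sfrp1 (log2 fold change −0.24, limma adjusted p = 0.0117), Dkk3 (−0.26, 1.03e-04) and Wnt5a (−0.16, 0.0261) passed, 3 of 44 genes against 1.11% of all genes in that fit of 4 libraries. For Dkk3 and Wnt5a the pair left out was the only one that was higher with the response element guide. Its ratio was 1.02 in Dkk3, and the pair ratios of Wnt5a were 0.858, 1.09 and 0.934. In Sfrp1 the pair left out had the smallest drop (ratio 0.955). Just 4 libraries set the error there, so these p-values call for caution. Summed over Sfrp1, Sfrp2, Sfrp4 and Frzb, the control guide had 37.7, 19.9 and 18.1 CPM per kb and the response element guide 30.8, 17.98 and 16.4. The summed frizzled receptors differed little by comparison, at 79.1, 78.2 and 81.7 and at 75.1, 79.7 and 80.6 CPM per kb.

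Rspo2, Fzd6, Wnt7b and Wnt10b lie on chromosome 15, the chromosome of Pvt1 and Myc, at 18.9, 23, 23.2 and 36.4 Mb from Pvt1. Their log2 fold changes between guides were −0.05, 0.06, 0.04 and 0.04, and none passed either fit.

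Replicate number separated these genes far more than the guide did. A moderated F test of replicate number, with the guide as a term, called 33 of the 44 genes (limma adjusted p below 0.05 over all genes), where 48.6% of all genes were called. Its error is what guide and number leave over, so its p-values do not measure spread between further cultures. Of the variance of each gene, replicate number held a median of 89.1%, the guide 2.18% and the rest 6.63%, against 80.5%, 3.94% and 10.1% over all genes. These are shares of summed squares, not scaled to degrees of freedom. Replicate number, with 3 levels against 2 guides, would take a larger share than the guide even without any difference. The median SD between replicate means was 0.24 on the log2 scale for the 44 genes and 0.12 for all genes. It was widest in the secreted antagonists (0.47) and the Wnt ligands (0.37) and narrowest in the receptors (0.13).

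By role, the test called 10 of 13 ligands, 7 of 12 receptors and coreceptors and 4 of 6 genes of the R-spondin branch. It also called 6 of 6 antagonists and 6 of 7 intracellular components, where 48.6% of all genes were called. Replicate 1 was the odd one out. Of the 44 genes, 9 were higher in replicate 1 than in both other replicates (Rspo2, Rspo3, Sfrp2, Dkk3, Wif1, Wnt10a, Lrp5, Fzd8 and Tcf7l2; 13.5% of all genes). Another 15 were lower there than in both (Wnt2b, Wnt3, Wnt4, Wnt5a, Wnt7a, Wnt7b, Wnt10b, Fzd6, Fzd7, Fzd10, Dkk2, Frzb, Axin2, Tcf7 and Lef1; 13.7% of all genes).

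**Figure D3:**
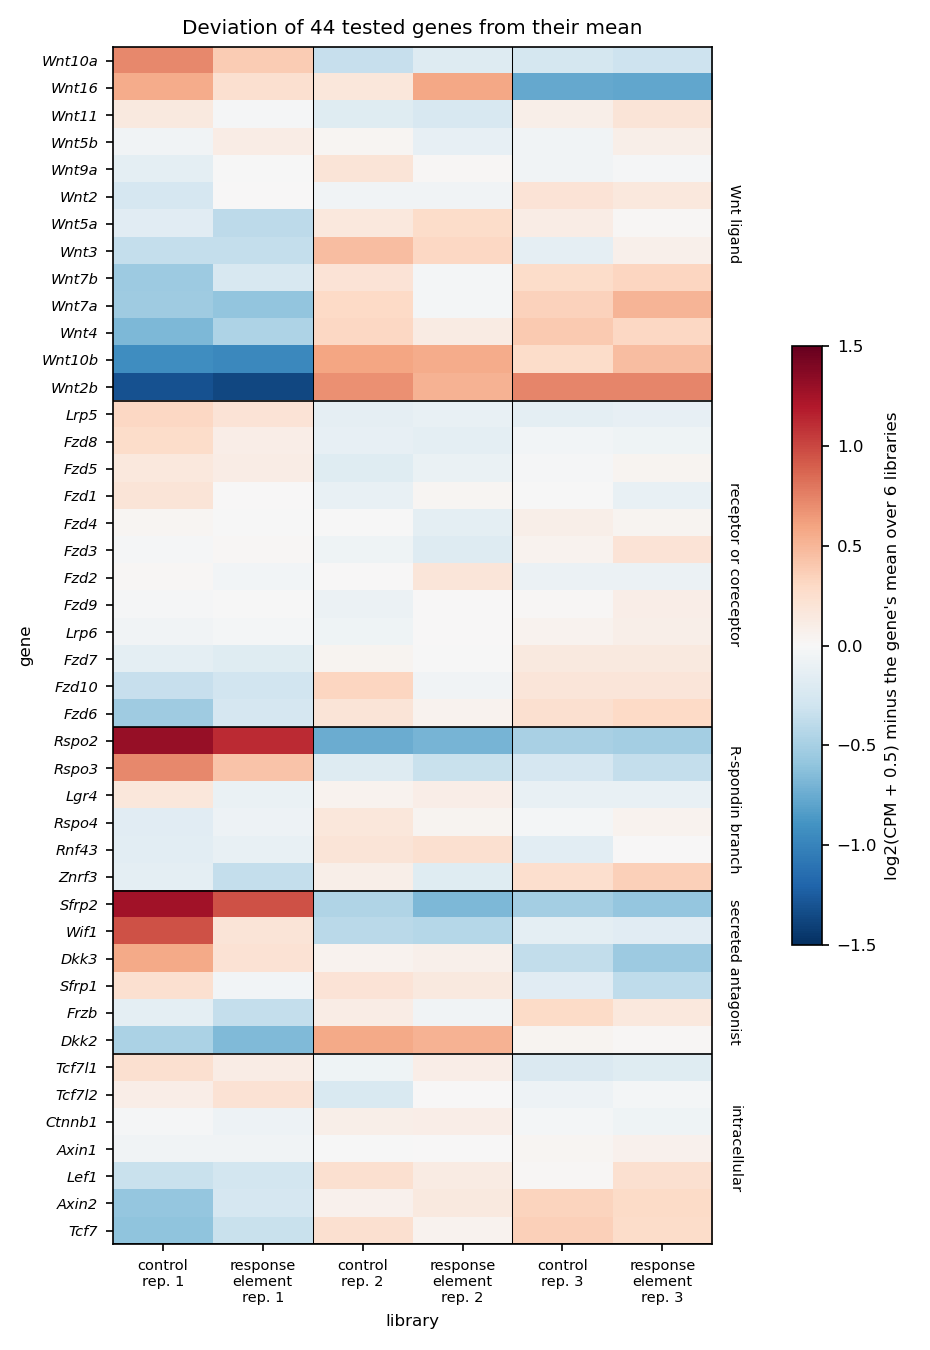
Deviation of log2(CPM + 0.5) from each gene's mean over 6 libraries for the 44 tested genes (rows, by role and by their level in replicate 1) in the 6 libraries (columns, paired by replicate number); the colour scale is cut at 1.5 either way. The 2 columns of replicate 1 carry the deepest colours, red in Rspo2 and Sfrp2 and blue in Wnt2b and Wnt10b, and the guides of one replicate resemble each other.

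Considered one pair of replicates at a time, 11 genes were higher (19.1% of all genes) and 17 lower (20.0%) in replicate 1 than in replicate 2. Against replicate 3, 12 were higher (19.8%) and 16 lower (20.5%) in replicate 1. Between replicates 2 and 3, 8 were higher (7.13%) and 3 lower (8.38%) in replicate 2. Without the libraries of replicate 1, replicates 2 and 3 differed in 19 of the 44 genes, against 22.4% of all genes in that fit.

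Rspo2, a secreted enhancer of Wnt signalling, showed the largest excess in replicate 1 of the 44 genes. It stood at 52.2, 12.2 and 14.7 CPM with the control guide and at 45.9, 12.6 and 14.5 CPM with the response element guide. Both libraries of replicate 1 were high and all others low, 3.63 times the mean of replicates 2 and 3 (log2 difference 1.94 from replicate 2 and 1.71 from replicate 3, limma adjusted p = 3.94e-09 and 9.91e-09). Rspo3 stood at 24.9, 13.03 and 12.5 CPM and at 20.2, 11.7 and 11.5 CPM, 1.85 times as high in replicate 1 (log2 differences 0.83 and 0.87, limma adjusted p = 5.04e-06 and 3.15e-06). Lgr4, a receptor for R-spondins, showed no such excess, at 26.3, 24.3 and 21.5 CPM and 21.8, 24.9 and 21.6 CPM (F test, limma adjusted p = 0.121).

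The ligases that R-spondins act on went other ways. Znrf3 was highest in replicate 3, at 12.3, 14.5 and 16.4 CPM and 10.5, 11.9 and 17.7 CPM (limma adjusted p = 0.00156). Rnf43 was highest in replicate 2, at 10.6, 13.7 and 10.6 CPM and 11.0, 14.2 and 11.96 CPM (limma adjusted p = 0.00562). Rspo4, at 0.519 to 0.785 CPM and 30 to 50 reads, was not called.

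The antagonists split. Sfrp2, with the values above, was 3.23 times as high in replicate 1 as the mean of the others (log2 differences 1.66 and 1.65, limma adjusted p = 8.80e-09 and 9.91e-09). Wif1 was 2.08 times as high there (0.99 and 0.74, limma adjusted p = 0.00221 and 0.0102), although its 2 libraries of replicate 1 differed between each other (5.57 and 3.08 CPM). Dkk3 fell into 3 levels, highest in replicate 1 and lowest in replicate 3 (limma adjusted p = 7.18e-04 over the 3 numbers).

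Dkk2, which can act as agonist or antagonist at Lrp6, ran against them. It stood at 60.6, 125 and 86.5 CPM with the control guide and at 52.9, 121 and 85.1 CPM with the response element guide, lowest in replicate 1 and highest in replicate 2 (log2 differences of replicate 1 −1.11 from replicate 2 and −0.59 from replicate 3, limma adjusted p = 1.78e-08 and 2.13e-06). No library of one replicate overlapped those of another. Frzb was also lower in replicate 1, at 0.756 times the mean of the others, and Sfrp1 was lower in replicate 3 than in both others (log2 differences of replicates 1 and 2 from it 0.38 and 0.45, limma adjusted p = 4.55e-04 and 6.79e-04).

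**Figure D4:**
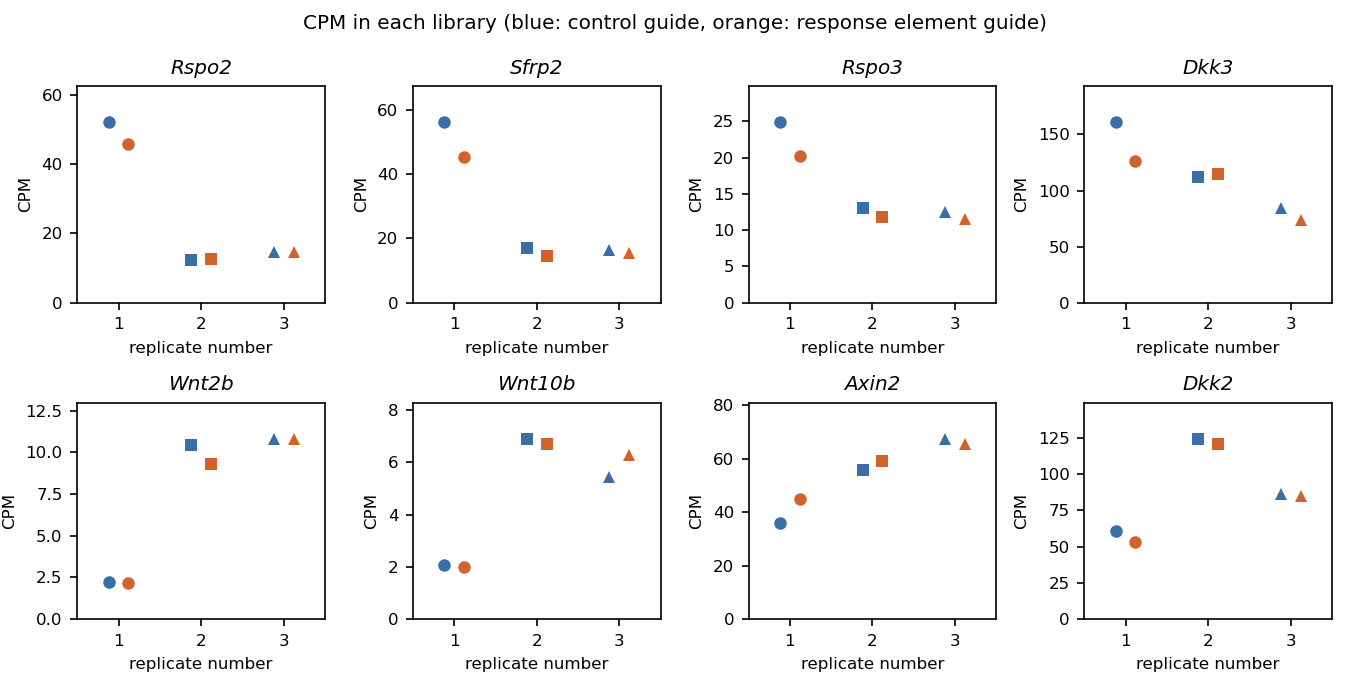
CPM in each library by replicate number for 8 genes (blue: control guide, orange: response element guide; each axis starts at 0). In the upper row replicate 1 is the highest, 3.63 times the mean of the others in Rspo2 and 1.49 times in Dkk3, and in the lower row it is the lowest, 0.213 times in Wnt2b and 0.651 times in Axin2.

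Most ligands that differed were low in replicate 1. Wnt2b stood at 2.25, 10.5 and 10.8 CPM with the control guide and at 2.15, 9.28 and 10.8 CPM with the response element guide, 0.213 times the mean of the other replicates (log2 differences −1.94 and −2.07, limma adjusted p = 4.56e-08 and 2.69e-08). Wnt10b, a canonical ligand, stood at 2.08, 6.91 and 5.44 CPM and at 2.01, 6.72 and 6.28 CPM, 0.322 times the others (−1.52 and −1.32, limma adjusted p = 1.12e-06 and 3.05e-06). In both genes the 2 libraries of replicate 1 lay below all 4 others.

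Wnt4 was 0.547 times the others in replicate 1, at 28.0, 56.1 and 59.5 CPM and 32.4, 49.0 and 56.1 CPM (−0.79 and −0.93, limma adjusted p = 4.93e-04 and 2.00e-04). Wnt5a was 0.749 times the others, at 109, 136 and 132 CPM and 93.3, 148 and 123 CPM (−0.49 and −0.34, limma adjusted p = 0.00185 and 0.00998). Wnt7a, Wnt7b and Wnt3 lay at 0.391, 0.642 and 0.653 times the others. Summed over all ligands, replicate 1 had 55.7 and 57.1 CPM per kb, and the other 4 libraries 70.5 to 76.9.

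Wnt10a, a canonical ligand like Wnt10b, went the other way. It stood at 5.07, 2.17 and 2.32 CPM and at 3.91, 2.45 and 2.21 CPM, 1.96 times as high in replicate 1 (log2 differences 0.82 and 0.84, limma adjusted p = 6.23e-04 and 4.79e-04). Wnt16 set replicate 3 apart instead, at 3.06, 2.22 and 0.917 CPM and 2.36, 3.12 and 0.907 CPM (log2 differences of replicates 1 and 2 from replicate 3 1.18 and 1.15, limma adjusted p = 2.47e-04 and 0.00140). Wnt11 was lowest in replicate 2, at 5.95 and 5.73 CPM (limma adjusted p = 0.0260). Wnt9a, Wnt2 and Wnt5b were not called, and the most abundant ligand, Wnt9a, spanned 83.8 to 107 CPM (limma adjusted p = 0.116).

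Receptors varied least. Lrp5 stood at 135, 98.9 and 97.7 CPM and at 125, 101 and 100.1 CPM, 1.31 times as high in replicate 1 (log2 differences 0.38 and 0.39, limma adjusted p = 5.43e-05 and 3.81e-05). Its partner Lrp6 stayed between 70.4 and 78.8 CPM and was not called (limma adjusted p = 0.0793). Fzd7 was lowest in replicate 1, at 103, 117 and 127 CPM and 100.3, 113 and 126 CPM (−0.18 and −0.31, limma adjusted p = 0.00441 and 7.47e-05).

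Fzd6 and Fzd10 were lower in replicate 1, at 0.663 and 0.707 times the others, and Fzd8 higher, at 1.22 times. Fzd5 was higher in replicate 1 than in replicate 2 only (log2 difference 0.27, limma adjusted p = 0.00116, and 0.0719 against replicate 3). Fzd2 was called narrowly (limma adjusted p = 0.0485), and Fzd1, Fzd3, Fzd4 and Fzd9 were not called. The summed frizzled receptors moved little between replicates, with 75.1 to 81.7 CPM per kb in the 6 libraries.

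Within the cell, Axin2 stood at 35.8, 56.0 and 67.6 CPM with the control guide and at 45.1, 59.2 and 65.7 CPM with the response element guide. Both libraries of replicate 1 were below all others, at 0.651 times their mean (log2 differences −0.51 and −0.72, limma adjusted p = 0.00198 and 3.23e-04). Tcf7 (7.06, 13.1 and 14.2 CPM, and 8.57, 11.4 and 13.4 CPM) and Lef1 (4.83, 7.42 and 6.31 CPM, and 5.03, 6.82 and 7.41 CPM) were likewise low in replicate 1, at 0.60 and 0.705 times the others (F test, limma adjusted p = 3.05e-04 and 0.00457).

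Tcf7l2 (25.2, 19.9 and 22.2 CPM, and 27.4, 23.5 and 23.01 CPM) was slightly higher in replicate 1, at 1.18 times the others (limma adjusted p = 0.0104 over the 3 numbers), and Tcf7l1 was higher in replicate 1 than in replicate 3 (log2 difference 0.38, limma adjusted p = 0.00229). Ctnnb1 differed by little and passed (931, 1001 and 923 CPM, and 894, 1009 and 900.2 CPM, limma adjusted p = 0.0165), being highest in replicate 2. Axin1, the constitutive scaffold of the destruction complex, was the steadiest, between 57.0 and 61.5 CPM, and was not called (limma adjusted p = 0.216).

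The pathway was read further from 6 lists chosen with earlier results of these data known, in which Nkd1, Nkd2, Apcdd1, Bambi and Notum each stand on 2 lists. Of 10 other secreted or membrane antagonists tested, 0 differed between guides in either fit, and 10 differed between replicates (48.6% of all genes), with 8 lower in replicate 1 than in replicate 2 (20.0% of all genes) and 9 lower than in replicate 3 (20.5%). Grem1, chiefly a BMP antagonist, stood at 592, 752 and 692 CPM and at 528, 772 and 627 CPM (log2 fold change between guides −0.09), Kremen1, a Dkk receptor, at −0.05, Apcdd1 at −0.08 and Igfbp4 at −0.03 on the same scale. The list of genes often reported as targets of beta-catenin also holds Axin2, Lef1, Tcf7, Rnf43 and Znrf3, which are described above and left out here. Of its other 22 tested genes, Myc, the neighbour of Pvt1 used to check the guide, was the single one to pass between guides, with the block. Of the 22, 19 differed between replicates (48.6% of all genes). In replicate 1, 9 of the 22 were lower than in replicate 2 (20.0% of all genes) and 11 lower than in replicate 3 (20.5%), against 6 (19.1%) and 2 (19.8%) higher. Lgr6 (−0.13) and Wisp2 (−0.14) had the next smallest p between guides, and the most abundant, Ccnd1 (988 ± 181 and 1005 ± 137 CPM) and Cd44 (466 ± 59.7 and 474 ± 66.7 CPM), did not differ past the test.

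In the remaining 4 lists no gene passed between guides in either fit. The first held 14 tested genes of Wnt secretion and carriage (median log2 fold change −0.06 without the block). Of these, 12 lay lower with the response element guide, where 50.3% of all genes lay lower. Next came 26 genes of the destruction complex and cytoplasmic signalling (median −0.01). After them came 21 nuclear partners of beta-catenin together with other catenins (0.03), then 26 genes of the beta-catenin-independent branch (0.03). Wls, the carrier that brings Wnt proteins to the cell surface, stood at 399 ± 3.79 and 382 ± 22.97 CPM (log2 fold change −0.07). Gpc6 (−0.12), Sdc4 (−0.05), Sulf2 (0.00) and Sdc1 (−0.02) completed the named genes of the first list. For the others these were Dvl3 (0.09), Dvl1 (0.05), Btrc (−0.07), Csnk1a1 (0.00) and Tnks2 (−0.03), then Crebbp (0.17), Tle3 (0.11), Ctnna1 (−0.06) and Jup (0.00), and finally Celsr3 (0.21), Scrib (0.12), Daam2 (−0.06), Ptk7 (0.02) and Nfatc4 (0.00). Between replicates the lists had 10 of 14 (71.4%), 16 of 26 (61.5%), 12 of 21 (57.1%) and 19 of 26 genes (73.1%) called, against 48.6% of all genes.

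Of the 14 fibroblast and mesenchymal markers, 10 differed between replicates (71.4%, against 48.6% of all genes). Markers of other cells also differed between replicates. Of 13 tested macrophage markers, 10 were higher in replicate 1 than in replicate 2 (19.1% of all genes) and 9 higher than in replicate 3 (19.8%). A higher mean with the response element guide was seen in 12 of the 13, where 7176 of all 14440 genes lay higher. The median log2 fold change of the markers was 0.15, and none passed in either fit. Their summed level was 201, 96.6 and 114 CPM with the control guide and 317, 90.2 and 116 CPM with the response element guide. The sum was thus higher with the response element guide mainly in replicate 1. The markers were led by Lyz2, Cd68 and Adgre1, and Ptprc, also on the list, stood at 1.09 to 4.31 CPM. Summed epithelial markers lay between 57.7 and 101 CPM, of which Krt19 gave 51.4 to 96.9 CPM, while Epcam and Cdh1 did not pass 0.605 CPM in any library. Krt19 was not called between replicates (F test, limma adjusted p = 0.149). Krt18 (1.34 to 4.54 CPM) and Cldn4 (0.294 to 2.80 CPM) were lower in replicate 1 than in replicates 2 and 3. The log2 differences were −0.58 and −1.28 for Krt18 (limma adjusted p = 0.00424 and 1.26e-05). For Cldn4 they were −1.83 and −1.87 (limma adjusted p = 2.49e-06 and 1.83e-06). The summed endothelial (led by Kdr, Vwf and Erg), muscle (Des, Myh11 and Pax7), neural and glial (Nes, Tubb3 and Map2) and cartilage and bone markers (Col2a1, Runx2 and Sox9) lay between 55.1 and 80.9, 31.0 and 51.4, 200.4 and 260, and 97.9 and 142 CPM. The part of any of these cells in the differences between replicates or guides was not tested.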

How the data were processed

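A strand-specific TruSeq kit was used on polyadenylated RNA (labels' protocols). The submitters' processing notes name the build mm10 and the tools HTSeq 0.6.1, edgeR 3.22.3, TopHat2 2.0.14 and StringTie 1.2.4, without roles or a strand setting. The deposited CPM per gene, and the authors' log2 fold change and p-value, come from edgeR per the file headers. The 6 columns of pseudo-counts were not used, nor were 6 untreated samples. Of 16427 entries, 2 held reads of no gene (0.543% to 1.58% ambiguous, 8.06% to 8.94% outside genes) and were removed. All CPM values corresponded to whole reads within 0.01.

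The test was limma 3.58.1 (R 4.3.3, trend, robust) on log2(CPM + 0.5) for 14440 genes (0.5 CPM or more in 3 or more libraries), with Benjamini-Hochberg adjustment over all of them and a threshold of 0.05. It had 4 residual degrees of freedom, and 2 with replicate number as a block. Deviations from group means correlated at 0.869, 0.739 and 0.817 across genes for equal replicate numbers and at most at 0.203 otherwise, so the numbers pair the libraries. Nothing in the sources used here says that the replicates came from separate embryos. Between guides without the block, p-values measure the spread between these samples. With the block, and between replicate numbers, the error is what guide and number leave over among the paired libraries. The spread between replicates is taken out of that error, so p-values between numbers do not measure spread between cultures. Each of the 44 tested genes had at least 30 reads in every library. Coordinates and exon lengths are from GENCODE M21, promoter windows from RefSeq (GRCm38.p6). The genes, lists and tests were chosen with earlier results of these data known. Of each pathway list the 3 genes with the smallest p and the 2 most abundant are named, of each marker list the 3 most abundant. Ptprc, Epcam and Cdh1 are named in addition. Alternatives were other scalings, filters, pseudocounts and thresholds, limma without trend, edgeR 4.0.16 and DESeq2 1.42.0 on the recovered reads, the block, and libraries left out.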

Additional observations from a re-analysis of the deposited data

How the results depend on the processing

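With the replicate block, 5 genes of the whole table were called between guides where 0 were without it, and DESeq2 without the block called 1. The blocked count was 0 in limma without trend, 3 at a threshold of 0.01, and 8 to 156 with the libraries of 1 replicate left out. For the 44 Wnt pathway genes the blocked count was 0 to 3 with a replicate left out, the 3 without replicate 2 being Sfrp1, Dkk3 and Wnt5a, and 0 in the other alternatives run. Between replicate numbers, limma without trend called 4576 genes of the whole table and a threshold of 0.01 called 4662, against 7022, and leaving a replicate out gave 3164 to 6852. Of the 44 genes 19 to 33 were then called. Replicates 2 and 3 differed in 11 of the 44 genes, in 0 in limma without trend, in 5 in DESeq2, in 4 at the threshold of 0.01 and in 19 without replicate 1. The cause of these shifts was not tested. No called direction turned. Between guides, 36 of the 44 genes changed the sign of an uncalled fold change under at least 1 of the alternatives, so that their directions are not settled. The replicate block changed no other call among the 44 genes. Values of Wnt3a, Wnt8a, Rspo1 and Sfrp4, at 4 to 49 reads per library, are limited by depth.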
